A study of Mus musculus with 12 samples.

Results

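The genes described here are the ligands, receptors, Smads, latent binding proteins and antagonists of the TGF-beta and BMP pathways. They were picked by a rule on gene names, which used no measured value, among the protein-coding genes of the deposited table, and 58 of the 55862 listed genes met the name rule. The data were RNA-seq profiles of 12 samples of mouse brain cells, with 3 samples in each of 4 groups. ASTs were astrocytes cultured as a monolayer from newborn cerebral cortex after the meninges were removed, taken at day 0 of incubation as the negative control. A-iSCs were such astrocytes after 5 days on agarose-coated dishes, where the cells gather into spheres, with no gene or agent added. P56-NPCs were a cell suspension from the adult subependymal zone at postnatal day 56, P0-NPCs were a cell suspension from the newborn hippocampus at postnatal day 0, and both served as positive controls. All samples are labelled C57BL/6, while the methods give C57BL/6 for the astrocytes and C57BL/6J for both NPC groups. The methods describe no transgene in any group and no sorting of either NPC suspension. The methods name 3 independent experiments for the study in general but do not tie the 3 sequenced samples of a group to separate animals or cultures, so the p-values measure only the spread between these samples.

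Ligands of the TGF-beta superfamily bind pairs of type I and type II receptor kinases. Type I receptors for TGF-beta and activin phosphorylate Smad2 and Smad3, those for BMPs phosphorylate Smad1, Smad5 and Smad9, and both kinds of Smad enter the nucleus with Smad4. TGF-beta is secreted in a latent complex with binding proteins (LTBPs) that hold it in the matrix, while noggin, chordin, gremlin and follistatin trap BMPs or activins outside the cell. Smad6 and Smad7 are inhibitory Smads that are themselves switched on by the pathway. In brain, BMP signaling is known for its part in astrocyte fate and in holding adult stem cells quiescent, and TGF-beta for its part in glial scarring and microglial identity.

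Levels are given as FPKM, fragments scaled by gene length and library size, as deposited. The recovered totals were 17077780 to 24452419 fragments per sample, and 3 fragments of a 1 kb gene stood for 0.103 to 0.187 FPKM, a limit that covers counting error only. Replicates of a group differed in their counts by more than sampling noise in each pair, and AST replicate 2 and A-iSC replicate 3 lay farthest from the other samples of their groups for 30 of the 47 expressed pathway genes each. The astrocyte marker Gfap averaged 29.9 FPKM in ASTs, against 970 FPKM in A-iSCs, and 6 of 7 astrocyte markers were called higher in A-iSCs. Monolayer ASTs also carried smooth muscle Acta2 at a mean of 1848 FPKM and the stem cell marker Nes at 196 FPKM. Of the other pericyte and smooth muscle markers, Pdgfrb and Cspg4 stood at 11.1 and 2.92 FPKM in ASTs. Rgs5, Myh11 and Kcnj8 were under 1 FPKM there. The suspension labelled P56-NPC had the myelin gene Mbp at a mean of 5271 FPKM and a sum of 7 astrocyte markers of 2370 to 2590 FPKM, and 16.5% to 17.6% of its fragments were mitochondrial. Its 6 stem cell markers summed to 225 to 249 FPKM, against 2590 to 3560 FPKM in ASTs, with 4 called lower than in ASTs and 1 higher. Most of the AST sum came from Vim, at a mean of 2186 FPKM, against 41.4 FPKM in P56-NPCs. Nes stood at 3.76 FPKM in P56-NPCs, Hes5 at 19.8 FPKM and Sox2 at 107 FPKM, against 196, 0.463 and 135 FPKM in ASTs. In P0-NPCs the summed level of 6 neuron markers was 761 to 937 FPKM. In such bulk samples, fewer cells of a type and less RNA per cell cannot be told apart.

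Of the 58 genes, 47 had a mean of at least 1 FPKM in any group, 11 were below 1 FPKM in all 4 groups, and 3 of these (Bmp10, Gdf1 and Inhbc) were listed at 0 in every sample. Gdf1 shares all its exon bases with Cers1 on the same strand, so its level is uncertain. Of the 47, the highest group mean was in ASTs for 19, in P0-NPCs for 17, in A-iSCs for 10 and in P56-NPCs for 1, the BMP receptor gene Bmpr1b. The lowest mean fell in P56-NPCs for 16 genes, in P0-NPCs for 12, in ASTs for 11 and in A-iSCs for 8. The heat map shows these levels by role and sample. Bmp4, Bmp6, Nog, Fst and both inhibitory Smad genes were bright in ASTs, Bmp5, Bmp7 and Chrd were brightest in P0-NPCs, and several receptor genes in A-iSCs or NPCs.

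**Figure D1:**
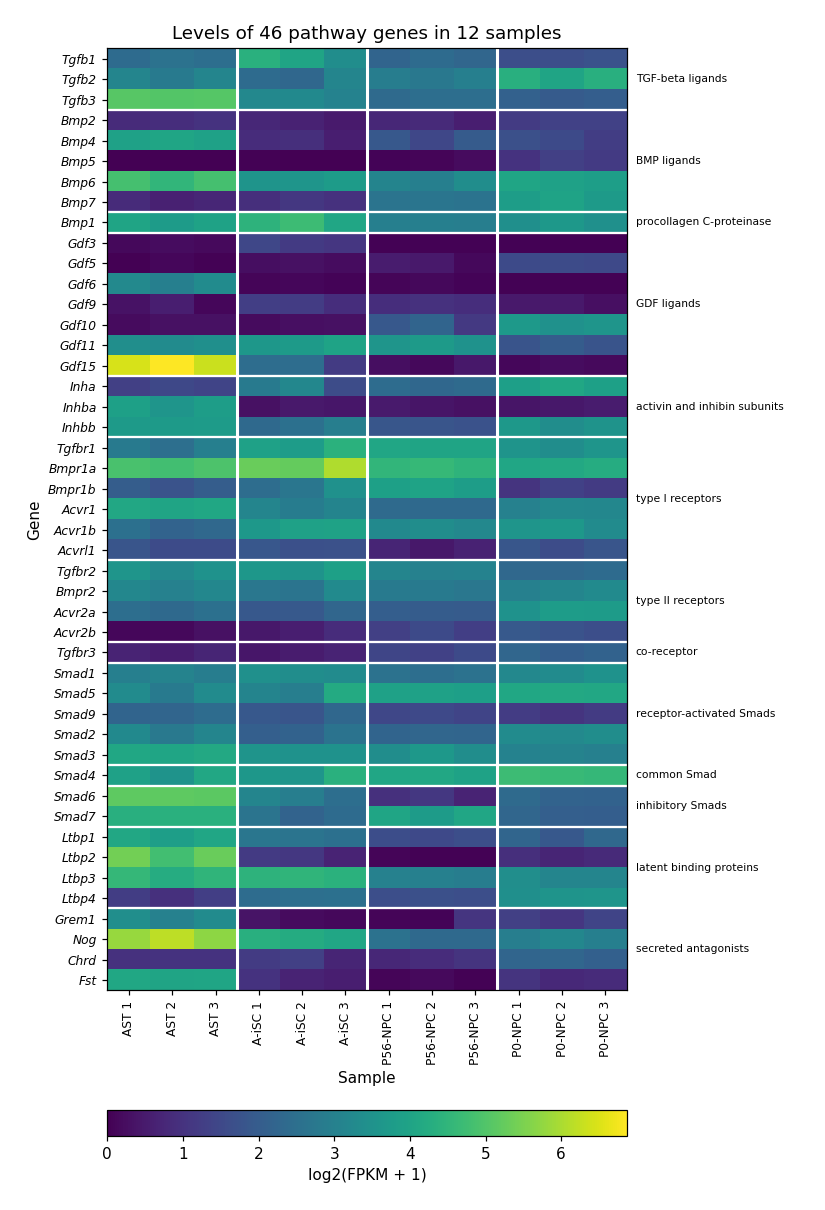
Levels of 46 pathway genes with a group mean of at least 1 FPKM, as log2(FPKM + 1) in colour, with genes in rows ordered by role and the 12 samples in columns. Gdf15, Nog, Ltbp2, Smad6 and Tgfb3 are bright in the 3 ASTs and darker in the other 9 samples, while Tgfb1 is brightest in A-iSCs and Bmp7 and Gdf10 in P0-NPCs.

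The main comparison set A-iSCs, after 5 days of sphere culture, against ASTs at day 0. No monolayer kept for 5 days was among the samples, so time in culture and sphere growth cannot be told apart. Group differences are log2 fold changes of FPKM + 1 from limma, which understate the change of low genes, and a gene was called at an adjusted p under 0.05 over the 14087 genes tested. Of the 58 pathway genes, 41 passed the filter of a mean of at least 1 FPKM in ASTs or A-iSCs. Of these 41, 12 were called higher in A-iSCs (29.3%) and 19 lower (46.3%), and 10 were not called. Over all genes tested, 25.2% were called higher and 29.6% lower. Scaled by library size, the shares were 34.1% and 43.9% of the pathway genes and 31.9% and 20.9% of all genes. A gene that passed the filter through 1 group only could differ in 1 direction only, which was so for 2 of the 12 higher calls, Gdf3 and Gdf9, and 6 of the 19 lower calls, among them Bmp4, Fst, Grem1, Inhba and Gdf6. Beyond a log2 fold change of 1, 6 pathway genes were higher, against 10.4% of all genes tested, and 16 were lower, against 11% of all genes tested. The median log2 fold change was -0.3 over the pathway genes and -0.06 over all genes tested. The 12 higher calls came down to 7 when AST replicate 1, 2 or 3 was left out, since the adjusted p of Inha, Bmp1, Bmpr1a, Gdf11 and either Smad1 or Bmpr1b then passed 0.05. Without A-iSC replicate 3, the sample farthest from its group, 12 were higher and 22 lower.

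**Figure D2:**
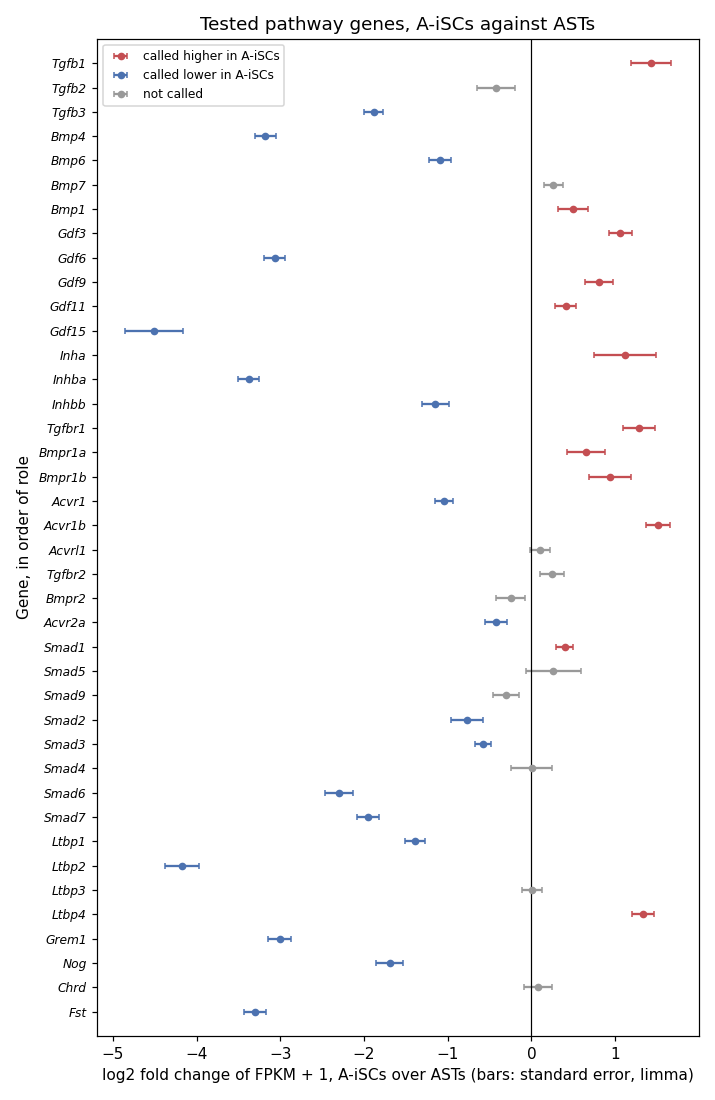
Log2 fold change of FPKM + 1 in A-iSCs over ASTs for 40 tested pathway genes in order of role, with points for the limma estimate and bars for its standard error. The called antagonists, both inhibitory Smads and the called BMP ligands and activin beta chains lie to the left of 0, and the 12 genes called higher lie within 1.52 to its right.

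The 4 promoters below are shown because the largest falls of an LTBP and an inhibitory Smad, a large fall of a secreted BMP trap, and the rise of a TGF-beta ligand, belong to them. They are the 300 bases from 250 before to 50 after each RefSeq start site on GRCm38.p6, written 5′ to 3′ on the gene's strand, and were chosen after the values were seen. Capitals mark GTCTAGAC, the Smad palindrome, GGCGCC, a GC-rich Smad box, and CAGAC, the core of the CAGA box, on either strand (GTCTG where reversed).
Smad6: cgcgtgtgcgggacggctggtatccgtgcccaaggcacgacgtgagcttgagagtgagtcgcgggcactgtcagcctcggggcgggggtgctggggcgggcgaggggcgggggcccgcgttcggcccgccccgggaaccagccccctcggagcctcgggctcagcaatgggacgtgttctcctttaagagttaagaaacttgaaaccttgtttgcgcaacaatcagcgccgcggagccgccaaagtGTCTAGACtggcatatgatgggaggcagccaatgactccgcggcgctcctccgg
Ltbp2: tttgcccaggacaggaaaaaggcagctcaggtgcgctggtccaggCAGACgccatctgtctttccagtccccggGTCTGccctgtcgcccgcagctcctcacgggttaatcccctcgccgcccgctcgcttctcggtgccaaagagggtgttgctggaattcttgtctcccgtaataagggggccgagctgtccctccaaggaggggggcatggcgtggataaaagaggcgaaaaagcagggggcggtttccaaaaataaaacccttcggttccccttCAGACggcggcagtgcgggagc
Grem1: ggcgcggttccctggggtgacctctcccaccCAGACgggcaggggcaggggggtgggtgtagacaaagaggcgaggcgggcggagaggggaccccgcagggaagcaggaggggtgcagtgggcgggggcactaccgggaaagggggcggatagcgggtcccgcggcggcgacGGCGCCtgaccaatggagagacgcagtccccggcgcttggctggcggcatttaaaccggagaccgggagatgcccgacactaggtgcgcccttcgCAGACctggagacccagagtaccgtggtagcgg
Tgfb1: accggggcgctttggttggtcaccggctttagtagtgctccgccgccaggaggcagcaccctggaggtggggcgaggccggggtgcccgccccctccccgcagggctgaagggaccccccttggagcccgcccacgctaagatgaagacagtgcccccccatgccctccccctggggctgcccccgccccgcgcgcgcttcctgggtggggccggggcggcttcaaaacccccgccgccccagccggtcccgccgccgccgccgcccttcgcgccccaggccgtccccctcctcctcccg
The Smad6 window (minus strand, chr9:64022010-64022309) held 1 palindrome, whose first base lay at position -4 from the start site. Of the 32851 mouse promoter windows of this length, 0.213% held that palindrome, 11.9% held GGCGCC and 49.6% held CAGAC. The Ltbp2 window (minus strand, chr12:84876442-84876741) held CAGAC 3 times, and the Grem1 window (minus strand, chr2:113758599-113758898) held it 2 times beside 1 GGCGCC. None of the 3 motifs was in the Tgfb1 window (plus strand, chr7:25686752-25687051). Of the 41 pathway genes with a window, 1 held the palindrome, 11 held GGCGCC and 22 held CAGAC. These are matches of letters, and binding was not measured.

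The TGF-beta ligand genes Tgfb1 and Tgfb3 exchanged places between ASTs and A-iSCs. Tgfb1 (ENSMUSG00000002603, chromosome 7 from 25687002 to 25705077), the isoform that microglia and blood cells make in quantity, was at 4.25, 5.03 and 4.57 FPKM in ASTs and at 19.5, 15.2 and 9.34 FPKM in A-iSCs. All A-iSC samples lay above all ASTs, the third least so, and the log2 fold change was 1.43 (standard error 0.24, adjusted p = 0.00197 from limma). Tgfb3, a ligand known for its part in palate closure, was at 33.1, 31.6 and 32.0 FPKM in ASTs and at 8.27, 8.58 and 7.20 FPKM in A-iSCs. The groups were far apart, with a fitted log2 difference of -1.89 (standard error 0.11, limma adjusted p = 1.39e-05). Tgfb2, the isoform of developing neurons and radial glia, had 7.70, 6.10 and 7.69 FPKM in ASTs, against 4.24, 3.92 and 7.72 FPKM in A-iSCs. It was not called (log2 fold change -0.42, adjusted p = 0.158). A-iSC replicate 3 stood with the ASTs, and without that sample the value was -0.68 with an adjusted p of 0.0037.

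The sum of the 3 TGF-beta ligands was 44.0 ± 1.19 FPKM in ASTs (SD, n = 3) against 28 ± 3.9 FPKM in A-iSCs. Tgfb3 made up 73.3% ± 0.842 of it in ASTs and 28.8% ± 2.67 in A-iSCs. The share of Tgfb1 was 10.5% ± 1.18 in ASTs and 51.4% ± 11.6 in A-iSCs, from 38.5% in replicate 3 to 60.9% in replicate 1. In both NPC groups Tgfb2 led, with 43.0% ± 3.30 of the sum in P56-NPCs and 76.8% ± 1.64 in P0-NPCs. The leading isoform was thus Tgfb3 in ASTs, Tgfb1 in A-iSCs and Tgfb2 in both NPC groups, in each of their 3 samples, as the bars of isoform shares show. Tgfb1 moved with microglia and macrophage markers, of which 6 of 6 rose from ASTs to A-iSCs, with summed levels of 21.2 to 26.4 FPKM in ASTs, against 201 to 265 FPKM in A-iSCs. The same sum was 235 to 244 FPKM in P56-NPCs, where Tgfb1 stood at 3.67 to 4.28 FPKM, and 23.4 to 31.8 FPKM in P0-NPCs. No marker of that list was at 0 in any sample, and its part in the level of Tgfb1 was not tested.

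**Figure D3:**
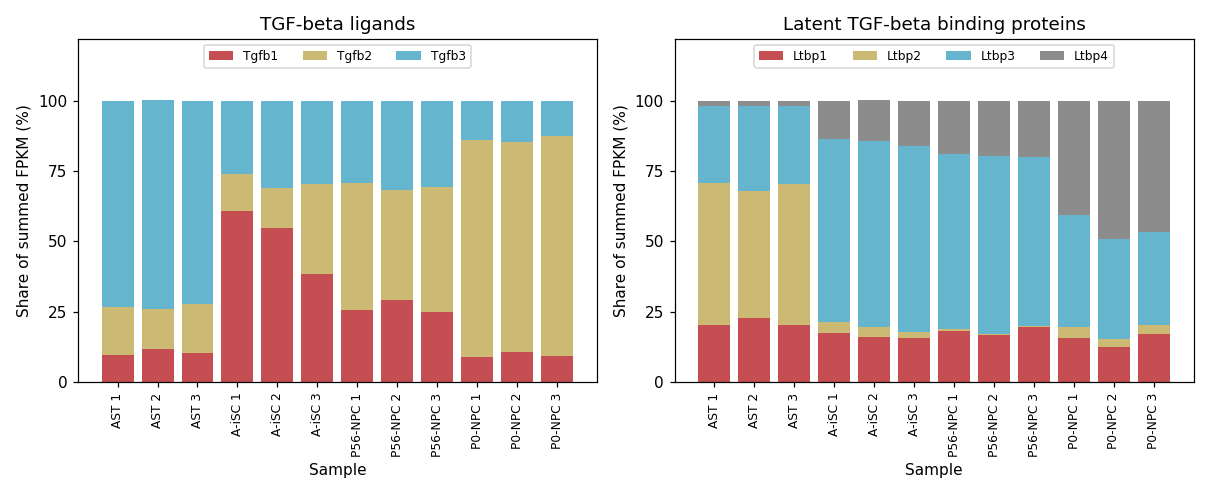
Share of each gene in the summed FPKM of the 3 TGF-beta ligands (left) and the 4 latent binding proteins (right), as stacked bars in percent for each of the 12 samples. Tgfb3 fills most of the AST bars, Tgfb1 is the largest part in the 3 A-iSCs and Tgfb2 in the P0-NPCs, and the Ltbp2 part is visible mainly in ASTs.

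Of 10 listed BMP ligand genes, 3 were tested, 2 were called lower and none higher. Over all genes tested, 29.6% were called lower and 25.2% higher. Bmp4, a ligand that drives precursors toward astrocytes, was at 14.3, 15.6 and 14.3 FPKM in ASTs and at 0.839, 0.898 and 0.498 FPKM in A-iSCs (log2 fold change -3.18, standard error 0.13, adjusted p = 4.9e-06 from limma). Bmp6, best known from the control of iron balance, went from 27.8, 22.0 and 27.6 FPKM to 10.8, 11.01 and 12.8 FPKM (log2 fold change -1.09, adjusted p = 0.000441). Neither gene overlapped between the groups, and Bmp6 made up 82.0% of the summed BMP ligand level in A-iSCs against 60.1% in ASTs. That sum was 42.8 ± 2.82 FPKM in ASTs, against 14.0 ± 0.727 FPKM in A-iSCs. Bmp7, which acts in kidney and forebrain development, was low in both, at 0.787, 0.552 and 0.683 FPKM in ASTs, against 0.889, 1.15 and 0.984 FPKM in A-iSCs. Its log2 fold change of 0.26 was not called (adjusted p = 0.0957). Bmp1, named with the BMPs but encoding a procollagen proteinase, was at 15.2, 12.8 and 14.5 FPKM in ASTs and at 20.9, 25.3 and 15.8 FPKM in A-iSCs. All 3 A-iSCs were above the ASTs, the third only just, and the call (0.50, adjusted p = 0.0458, but 0.0653 under upper-quartile scaling and 0.0846 with no filter) was among those lost when any AST sample was left out, and also without A-iSC replicate 1 or 2.

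Among the GDF ligands, 5 of 10 were tested, with 3 called higher and 2 lower, beside 25.2% and 29.6% of all genes tested. Gdf15 (ENSMUSG00000038508, chromosome 8 from 70629393 to 70632456), a stress-induced cytokine that signals through a receptor outside the pathway, was the most abundant pathway transcript of ASTs. It was at 86.6, 116 and 78.3 FPKM there and at 4.53, 4.45 and 1.29 FPKM in A-iSCs. The fitted log2 difference of -4.51 (standard error 0.35, limma adjusted p = 4.89e-05) was the lowest of the 41 tested pathway genes on this scale. Gdf6, a ligand of joint and eye development, was at 8.34, 6.76 and 8.93 FPKM in ASTs and at 0.0702, 0.0834 and 0.0528 FPKM in A-iSCs, close to the limit of detection (log2 fold change -3.07, adjusted p = 5.14e-06). In the other direction, Gdf3, a Nodal-like ligand, was at 0.0985, 0.163 and 0.133 FPKM in ASTs and at 1.76, 1.25 and 1.12 FPKM in A-iSCs (log2 fold change 1.06, adjusted p = 0.000514). Its level stayed under 0.04 FPKM in the 6 NPC samples, so the A-iSCs stood apart from the other 9 samples. Gdf9, an oocyte factor, and Gdf11, a regulator of neurogenesis, were called higher by 0.80 and 0.41, the latter not without any one AST sample or A-iSC replicate 2.

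Both tested activin beta chains fell, Inhba by far the more. Inhba, the beta A chain of activin A, was at 13.9, 10.9 and 13.2 FPKM in ASTs and at 0.233, 0.382 and 0.327 FPKM in A-iSCs (log2 fold change -3.38, standard error 0.12, adjusted p = 4.15e-06 from limma). Inhbb, the beta B chain, was at 12.5, 12.3 and 12.8 FPKM in ASTs and at 4.09, 4.76 and 6.67 FPKM in A-iSCs (log2 fold change -1.15, adjusted p = 0.000823). The chains were about level in ASTs, where Inhba made up 50.2% ± 2.92 of their sum, and in A-iSCs that share was 5.82% ± 1.43. Inha, the alpha chain that turns activin chains into inhibin, was at 1.46, 1.81 and 1.68 FPKM in ASTs and at 6.02, 7.98 and 1.998 FPKM in A-iSCs. The third A-iSC sample was barely above the ASTs, and the log2 fold change of 1.12 (adjusted p = 0.0367; 0.0738 by limma-voom and 0.0895 with no filter) was no longer called when any sample but A-iSC replicate 3 was left out.

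The genes of the LTBP family changed in make-up. Ltbp2 (ENSMUSG00000002020), the member of the family that does not bind latent TGF-beta, was at 41.4, 26.8 and 38.5 FPKM in ASTs and at 1.26, 1.17 and 0.615 FPKM in A-iSCs (log2 fold change -4.17, standard error 0.20, adjusted p = 8.03e-06 from limma). Ltbp1 went from 16.5, 13.5 and 15.6 FPKM to 5.49, 5.24 and 4.77 FPKM (log2 fold change -1.39, adjusted p = 7.26e-05). Ltbp4, the binding protein known from lung elastic fibres, was the one that rose, from 1.38, 0.939 and 1.43 FPKM to 4.34, 4.71 and 4.85 FPKM (log2 fold change 1.33, adjusted p = 0.000123). None of these 3 genes overlapped between the groups. Ltbp3 was at 22.7, 18.0 and 21.4 FPKM in ASTs and at 20.6, 21.5 and 20.01 FPKM in A-iSCs, and its difference of 0.005 was not called (adjusted p = 0.974) and turned negative under upper-quartile scaling. The 4 LTBPs summed to 72.7 ± 12 FPKM in ASTs, against 31.5 ± 1.18 FPKM in A-iSCs. Ltbp2, which does not bind latent TGF-beta, made up 48.6% of that sum in ASTs and 3.2% in A-iSCs.

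The secreted antagonist genes Nog, Fst and Grem1 fell in A-iSCs. Nog, which encodes the BMP trap noggin, was at 55.2, 71.6 and 51.5 FPKM in ASTs, the highest mean of the 5 antagonists met by the name rule, and at 19.3, 17.6 and 15.7 FPKM in A-iSCs (log2 fold change -1.70, adjusted p = 0.000113). Fst, which encodes the activin trap follistatin, was at 16.0, 15.2 and 15.5 FPKM in ASTs and at 0.995, 0.596 and 0.496 FPKM in A-iSCs (log2 fold change -3.30, adjusted p = 5.07e-06). The gap was thus far wider for the activin trap than for noggin, which remained at over 15 FPKM. Grem1 fell from 9.45, 7.06 and 8.88 FPKM to 0.275, 0.142 and 0.0989 FPKM. It encodes gremlin 1, a further BMP trap, and its log2 fold change was -3.01 (adjusted p = 6.55e-06). Chrd, the chordin gene, was at 0.963, 1.02 and 1.02 FPKM in ASTs and at 1.30, 1.49 and 0.650 FPKM in A-iSCs, groups that overlapped (adjusted p = 0.708). The summed antagonist level was 85.7 ± 9.27 FPKM in ASTs, against 19.6 ± 2.48 FPKM in A-iSCs. Summed fibroblast and mural cell markers were lower in the same samples: the fibroblast sum was 147 to 198 FPKM in ASTs, against 9.96 to 11.8 FPKM in A-iSCs, and the pericyte and smooth muscle sum 1710 to 2130 and 31.2 to 63.7 FPKM. In ASTs most of these sums came from Col1a1, at a mean of 158 FPKM, and Acta2, at 1848 FPKM. Under the filter in both groups, and so not tested, Lum, Rgs5 and Kcnj8 had higher means in A-iSCs, and Dcn and Myh11 lower ones. Of these lists, 3 of 4 tested fibroblast markers were called lower and 1, Pdgfra, higher, and 3 of 3 tested mural markers were called lower, Lum and Kcnj8 were at 0 in some ASTs, and the part of such cells in the results was not tested.

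**Figure D4:**
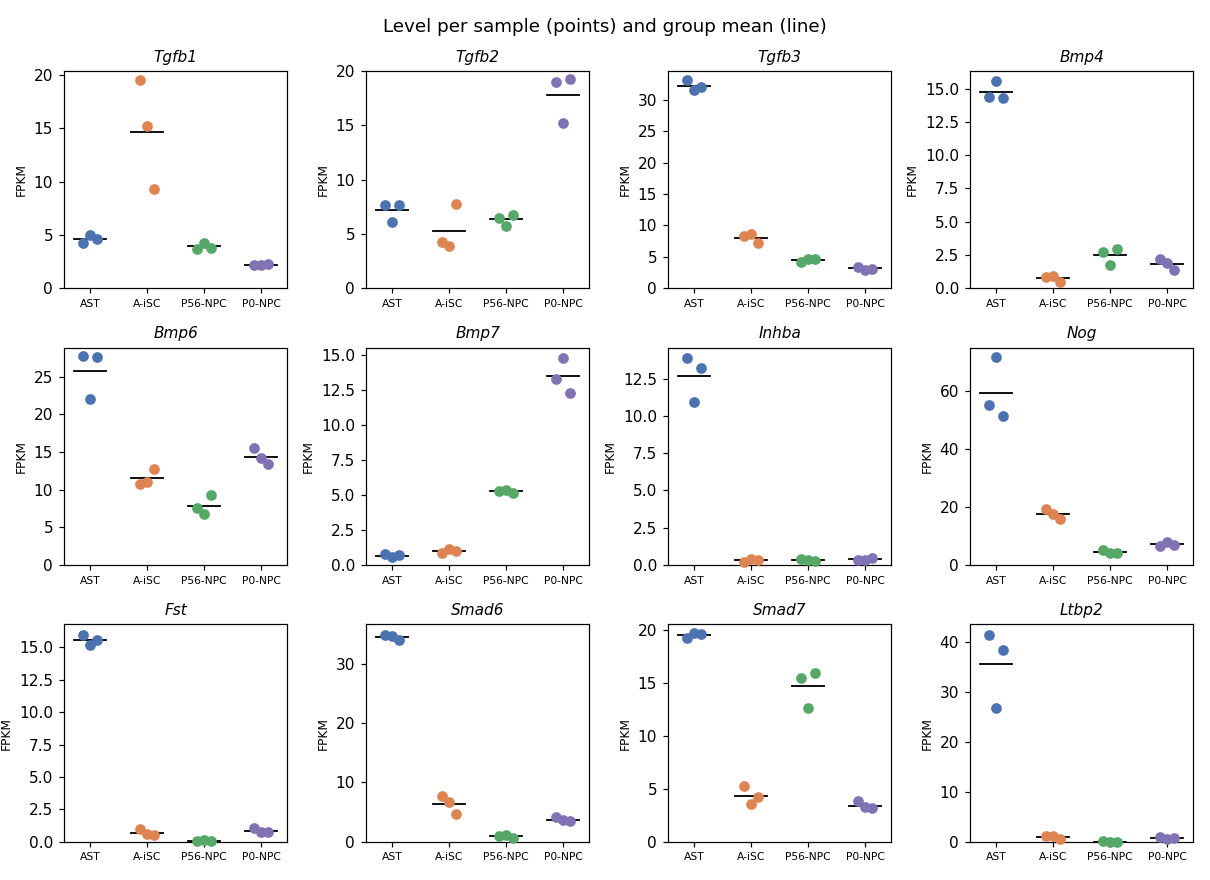
Level in FPKM of 12 pathway genes, with a point for each sample and a line for the group mean, for each of the 4 groups, each panel on its own linear axis from 0. Tgfb3, Bmp4, Inhba, Nog, Fst, Smad6 and Ltbp2 are highest in ASTs with no overlap, Tgfb1 is highest in A-iSCs, and Smad7 is high in both ASTs and P56-NPCs.

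Of 6 tested type I receptors 4 were called higher in A-iSCs and 1 lower, beside 25.2% and 29.6% of all genes tested. Acvr1b (ALK4, the activin receptor) was at 4.83, 3.52 and 3.97 FPKM in ASTs and at 11.67, 14.4 and 14.7 FPKM in A-iSCs, the highest log2 fold change of the 41 tested genes on this scale at 1.52 (standard error 0.14, adjusted p = 0.000122 from limma). Tgfbr1 (ALK5, the TGF-beta receptor) was at 6.01, 4.64 and 6.76 FPKM in ASTs and at 14.2, 12.9 and 19.9 FPKM in A-iSCs (log2 fold change 1.28, adjusted p = 0.00109). For both, the lowest A-iSC sample was above the highest AST. Bmpr1a (ALK3), the most abundant receptor in all 4 groups, was at 28.8, 26.7 and 29.7 FPKM in ASTs and at 38.1, 36.7 and 65.4 FPKM in A-iSCs. A-iSC replicate 3 stood high, and the call (0.65, adjusted p = 0.0407, but 0.0526 under upper-quartile scaling and 0.0835 with no filter) was lost without any one AST sample, while without A-iSC replicate 3 the value was 0.39 and the call held. Bmpr1b (ALK6), a BMP receptor known from cartilage, was called higher by 0.94 (adjusted p = 0.0168), but not without AST replicate 2 (adjusted p = 0.0605). Acvr1 (ALK2), a BMP receptor, fell from 16.5, 15.1 and 16.1 FPKM to 7.72, 6.42 and 7.54 FPKM (log2 fold change -1.04, adjusted p = 0.000225). The endothelial-type receptor Acvrl1 (ALK1) was near 2 FPKM in both and was not called (adjusted p = 0.515).

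Of 3 tested type II receptors 1 was called lower and none higher, beside 29.6% and 25.2% of all genes tested. Acvr2b, an activin receptor under the filter in both groups and so not tested, was at 0.0911, 0.1004 and 0.233 FPKM in ASTs and at 0.354, 0.493 and 0.845 FPKM in A-iSCs, with no overlap. Acvr2a, an activin and BMP receptor, was at 4.56, 4.08 and 4.76 FPKM in ASTs and at 2.71, 2.81 and 3.79 FPKM in A-iSCs (log2 fold change -0.42, adjusted p = 0.0316), a call lost with no filter (adjusted p = 0.0636), with scaling by library size (adjusted p = 0.173), without AST replicate 1 or 3 or without A-iSC replicate 1 or 2, at adjusted p of 0.0996 to 0.112. Tgfbr2, the TGF-beta type II receptor, and Bmpr2, its BMP counterpart, were not called (adjusted p = 0.2 and 0.27), although Bmpr2 was called lower, at -0.45, without A-iSC replicate 3. Tgfbr3, betaglycan, which presents TGF-beta to its receptors, was under 1 FPKM in both groups, at 0.592, 0.452 and 0.634 FPKM in ASTs, against 0.334, 0.424 and 0.616 FPKM in A-iSCs, and was not tested. The summed type I receptor level was 59.2 ± 4.23 FPKM in ASTs, against 92.3 ± 23.8 FPKM in A-iSCs, where replicate 3 reached 120 FPKM. The summed type II level was 22.3 ± 2.26 and 22.2 ± 4.42 FPKM.

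Both inhibitory Smads fell, while the signal-carrying Smads changed by less than 1 on the log2 scale. Smad6 (ENSMUSG00000036867, chromosome 9 from 63953076 to 64022059), which preferentially blocks BMP receptors and whose promoter carries the palindrome shown above, was at 34.9, 34.7 and 34.1 FPKM in ASTs and at 7.68, 6.68 and 4.63 FPKM in A-iSCs. Its log2 fold change was -2.30 (standard error 0.17, adjusted p = 3.69e-05 from limma). Smad7, which blocks both TGF-beta and BMP receptors, was at 19.3, 19.7 and 19.6 FPKM in ASTs and at 5.24, 3.57 and 4.24 FPKM in A-iSCs (log2 fold change -1.95, adjusted p = 2.82e-05). The AST values of these genes were tight, and no A-iSC sample came near them. Among the receptor-activated Smads, the TGF-beta effectors Smad2 (-0.77, adjusted p = 0.0122) and Smad3 (-0.58, adjusted p = 0.00218) were called lower and the BMP effector Smad1 higher (0.40, adjusted p = 0.0147). The call of Smad1 was lost without AST replicate 1 or 3 or A-iSC replicate 1, at adjusted p of 0.055 to 0.0759.

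For the remaining Smads the result depended on single samples. Smad5, a BMP effector, was at 8.91, 6.08 and 8.98 FPKM in ASTs and at 7.64, 6.66 and 17.2 FPKM in A-iSCs (log2 fold change 0.26, adjusted p = 0.528). The common partner Smad4 was at 14.4, 10.5 and 16.4 FPKM in ASTs and at 11.4, 11.1 and 19.7 FPKM in A-iSCs (0.004, adjusted p = 0.99, and -0.05 under upper-quartile scaling). In both cases A-iSC replicate 3 was the highest of the 6 samples, AST replicate 2 was the lowest, and the groups overlapped. Without A-iSC replicate 3 the differences were -0.13 for Smad5 and -0.25 for Smad4, and without AST replicate 2 that of Smad4 was -0.17, with no call. With both samples left out they were -0.29 (adjusted p = 0.0244) and -0.42 (adjusted p = 0.00689). Smad9, a further BMP effector, was likewise called lower, at -0.45, once A-iSC replicate 3 was left out.

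A list of 63 further genes, not met by the name rule, covered targets, modulators, activators and intracellular regulators of the pathway. Of these 49 were tested in A-iSCs against ASTs, and 8 were called higher (16.3%), 25 lower (51.0%) and 16 were not called, beside 25.2% and 29.6% of all genes tested. Among 9 TGF-beta target genes 2 were higher and 5 lower. Ccn2, the connective tissue growth factor, was at 336, 318 and 305 FPKM in ASTs and at 45.7, 47.2 and 26.1 FPKM in A-iSCs (log2 fold change -3.03, adjusted p = 4.67e-05 from limma). The groups were widely separated. Cdkn2b (-1.45), a cell cycle inhibitor, Pmepa1 (-1.40), a feedback inhibitor, and its relative Ldlrad4 (-0.41) were also called lower, the last with its call lost without any 1 sample but A-iSC replicate 3. The higher calls were Junb (1.54, adjusted p = 0.00181), an immediate early transcription factor, and Tgfbi (1.26, adjusted p = 0.000267), a matrix protein. Tgfbi was at 4.24, 4.12 and 4.94 FPKM in ASTs and at 14.3, 11.3 and 10.6 FPKM in A-iSCs.

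BMP target genes showed 1 higher call and 5 lower calls among 9, beside 25.2% and 29.6% of all genes tested. Id1, Id2 and Id3 encode inhibitors of basic helix-loop-helix factors and are direct BMP targets. Id1 was at 288, 433 and 289 FPKM in ASTs and at 228, 190 and 130 FPKM in A-iSCs (log2 fold change -0.89, adjusted p = 0.0236 from limma), a call lost with no filter (adjusted p = 0.0609), with scaling by library size (adjusted p = 0.0528), without AST replicate 2 (adjusted p = 0.0643) or A-iSC replicate 2 (adjusted p = 0.0564). Id2 rose, from 74.2, 84.1 and 73.8 FPKM to 142, 143 and 132 FPKM (log2 fold change 0.84, adjusted p = 0.00107). Id3 was at 253, 336 and 250.0 FPKM in ASTs and at 249, 243 and 180 FPKM in A-iSCs and was not called (adjusted p = 0.208), nor were Hey1 and Id4, the latter called higher, at 0.43, under scaling by library size. Larger falls were seen for Msx2 (-2.03, adjusted p = 2.4e-05) and Atoh8 (-1.35, adjusted p = 0.00416), both transcription factors, and Bambi (-0.94, adjusted p = 0.000336), a decoy receptor. The Id genes thus split, while Id1 and Id3 stayed above 129 FPKM in all A-iSC samples.

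Of the 7 tested activators and anchors of latent TGF-beta 4 were called lower and 1 higher, beside 29.6% and 25.2% of all genes tested. Thbs1, thrombospondin 1, which activates latent TGF-beta, was at 773, 604 and 792 FPKM in ASTs and at 22.9, 18.7 and 15.3 FPKM in A-iSCs, the lowest log2 fold change of the further list at -5.19 (adjusted p = 4.06e-06 from limma). Lrrc32, which anchors latent TGF-beta on regulatory T cells and platelets, fell from 3.77, 4.32 and 3.85 FPKM to 0.191, 0.126 and 0.0716 FPKM (-2.14). Nrros, its counterpart in microglia, rose from 1.24, 1.43 and 1.32 FPKM to 10.1, 8.48 and 6.94 FPKM (log2 fold change 2.02, adjusted p = 3.22e-05), beside the rise of the 6 microglial markers given above. Fbn1, the microfibril protein to which LTBPs attach, and Itgav, the integrin subunit that pulls TGF-beta free, were called lower at -1.98 and -1.34. Extracellular modulators had 2 higher and 6 lower calls among 12, from Crim1 (-2.88) and Fstl1 (-2.80), which bind BMPs, to the serine protease Htra3 (1.75). Further calls were Htra1 (-1.58), Fstl3 (-1.28) and Dand5 (0.65), beside 2 smaller falls. Of the co-receptors, the BMP co-receptor Rgma was higher (1.38) and the endothelial-type Eng lower (-1.28). Among intracellular regulators Smurf1 (-1.48), a ubiquitin ligase for Smads, Fkbp1a (-1.14), which guards type I receptors, Ski (-0.68), a Smad corepressor, and Nedd4l (-0.30), another ubiquitin ligase, were lower and Trim33 (0.40) higher. The calls of Nedd4l and Trim33 were lost with no filter (adjusted p = 0.0704 and 0.062) and without any one AST sample or A-iSC replicate 1, and that of Nedd4l also without A-iSC replicate 2.

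**Figure D5:**
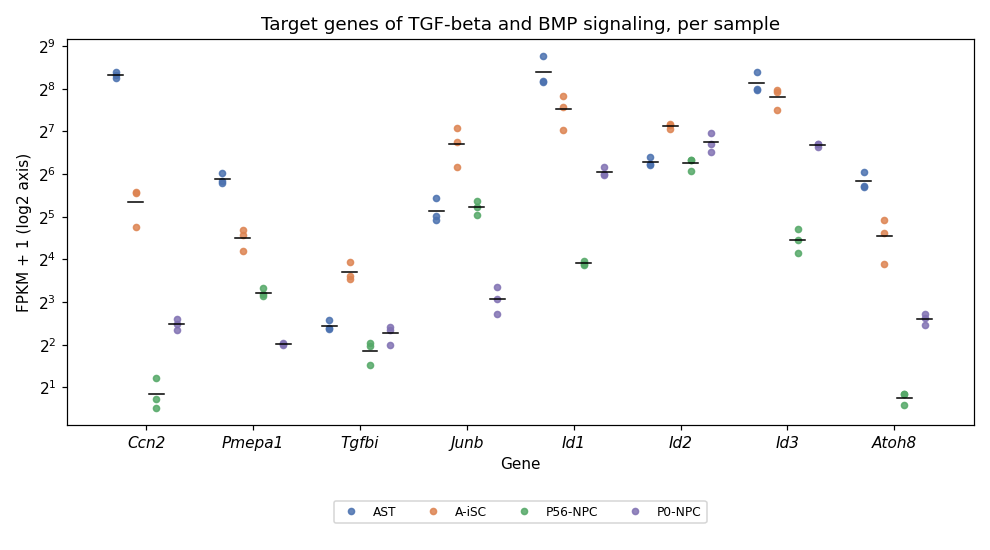
Level of 8 target genes of TGF-beta (Ccn2, Pmepa1, Tgfbi, Junb) and BMP signaling (Id1, Id2, Id3, Atoh8) as FPKM + 1 on a log2 axis, with a point for each sample and a line for the group mean. Ccn2 falls steeply from ASTs to A-iSCs and lies lower still in both NPC groups, while Id2 is highest in A-iSCs.

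Both NPC groups were also set against the same 3 ASTs, so these comparisons share their controls with the main one. In P56-NPCs, 41 pathway genes were tested, 11 were called higher (26.8%) and 27 lower (65.9%), where 39.1% and 39.8% of all 15146 genes tested were called in those directions. In P0-NPCs, 45 were tested, 17 were higher (37.8%) and 24 lower (53.3%), where 38.1% and 40.9% of all 15010 genes tested were called. Scaled by library size, all genes gave 31.2% and 51.6% in P56-NPCs and 46.3% and 31.6% in P0-NPCs, beside 24.4% and 70.7%, and 44.4% and 48.9%, of the pathway genes. Of the calls, 4 higher and 9 lower in P56-NPCs and 8 higher and 5 lower in P0-NPCs were of genes that passed the filter through 1 group only. The medians were -0.63 and -0.4, against -0.03 and -0.07 over all genes tested. In P56-NPCs the largest falls were of Gdf15 (-6.27), Ltbp2 (-5.11) and Smad6 (-4.24), and the highest rises of Bmpr1b (1.97) and Bmp7 (1.90). In P0-NPCs Gdf15 (-6.36) and Ltbp2 (-4.36) were again lowest, and the BMP-related ligands Gdf10 (3.32) and Bmp7 (3.11) were highest. All of these named genes but Bmpr1b passed the filter through 1 group only, so the direction of their calls was fixed.

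A-iSCs were then compared with each NPC group, to find where the sphere cells differed from the positive controls. Against P56-NPCs, 39 pathway genes were tested, with 20 called higher in A-iSCs (51.3%) and 7 lower (17.9%), while 30.1% of all 15044 genes tested were called higher and 30.9% lower. Scaled by library size, 55.9% of all genes were called higher and 19.2% lower, beside 69.2% and 15.4% of the pathway genes. Gdf15, Smad6, Ltbp2, Acvrl1 and Gdf3 passed the filter through A-iSCs only, and Gdf10, Bmp4, Tgfbr3 and Acvr2b through P56-NPCs only, so the direction of these 9 calls was fixed. The median was 0.5, against 0.03 over all genes tested. Smad6 was at 0.935, 1.17 and 0.606 FPKM in P56-NPCs, below every A-iSC sample, and was higher in A-iSCs by 1.93 (standard error 0.19, adjusted p = 0.00012 from limma). Smad7 went against it, with 15.4, 12.7 and 15.9 FPKM in P56-NPCs and a log2 fold change of -1.56 (adjusted p = 9.67e-05). The inhibitory Smads thus stood in opposite order in these groups, and Smad7 made the larger level in P56-NPCs. Ltbp1, Ltbp3 and Ltbp4 were higher in A-iSCs, with Ltbp3 at 7.05, 7.03 and 6.48 FPKM in P56-NPCs (log2 fold change 1.47). Nog (1.78), Gdf15 (1.76), Tgfb1 (1.62), Bmp1 (1.45), Gdf3 (1.21) and Acvrl1 (1.14) were higher as well. Bmp7 was at 5.26, 5.35 and 5.15 FPKM in P56-NPCs and was lower in A-iSCs (log2 fold change -1.64, adjusted p = 9.07e-06), followed by Gdf10 (-1.49), Bmpr1b (-1.03), Bmp4 (-0.98) and Tgfbr3 (-0.90). The call of Bmpr1b was lost under scaling by library size (-0.53, adjusted p = 0.0933).

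Against P0-NPCs, 43 pathway genes were tested, with 17 called higher in A-iSCs (39.5%) and 18 lower (41.9%), beside 31.5% and 33.6% of all 15170 genes tested. The median was -0.0 over the pathway genes and -0.02 over all genes tested. Of the 18 lower calls, 8 were of genes that passed the filter through P0-NPCs only (Bmp2, Bmp4, Bmp5, Gdf5, Gdf10, Grem1, Tgfbr3 and Acvr2b), and of the 17 higher calls 3 were of genes that passed through A-iSCs only (Gdf3, Gdf9 and Gdf15), so their direction was fixed. The BMP ligands that passed in both groups, Bmp6 (-0.30, adjusted p = 0.0485) and Bmp7, were lower in A-iSCs. Bmp7 was at 13.3, 14.8 and 12.3 FPKM in P0-NPCs, with a fitted log2 difference of -2.85 (standard error 0.12, limma adjusted p = 9.41e-07). Gdf10 was at 11.96, 10.2 and 10.9 FPKM in P0-NPCs and at 0.143, 0.218 and 0.243 FPKM in A-iSCs (-3.32, adjusted p = 5.48e-07), with 0.149, 0.227 and 0.238 FPKM in ASTs. The level of Gdf10 thus overlapped between A-iSCs and ASTs, and was 2.69, 3.67 and 1.22 FPKM in P56-NPCs. Tgfb1 was at 2.15, 2.15 and 2.31 FPKM in P0-NPCs, and A-iSCs were higher by 2.24 (adjusted p = 8.89e-05). Tgfb2 at 19.03, 15.3 and 19.3 FPKM was lower in A-iSCs (log2 fold change -1.63, adjusted p = 0.000413). Acvr2a (-1.67), Tgfbr3 (-1.63), Inha (-1.44), Gdf5 (-1.28), Bmp5 (-1.15), Acvr2b (-1.15), Chrd (-1.13), Smad2 (-1.02) and Ltbp4 (-1.02) were also lower. On the other side stood Gdf11 (1.93), Gdf15 (1.86), Bmpr1b (1.69), Bmpr1a (1.38), Tgfbr2 (1.35), Ltbp3 (1.22), Nog (1.18) and Tgfb3 (1.11). Bmp5 shared 46.7% and Gdf5 40.3% of their exon bases with another gene on GRCm38, and whether the counting used strand was not stated, so their levels are uncertain.

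Target genes were also compared between A-iSCs and the NPC groups. Of the 9 listed TGF-beta targets, 8 were called higher and 1 lower in A-iSCs than in P56-NPCs, and 7 higher and none lower than in P0-NPCs, where the shares of all genes tested were the 30.1% and 30.9%, and the 31.5% and 33.6%, given above, with those against P56-NPCs moving to 55.9% and 19.2% when scaled by library size. Of the 9 BMP targets, 6 were higher and 2 lower than in P56-NPCs, and 8 higher and 1 lower than in P0-NPCs. Id1 was at 14.5, 13.9 and 13.7 FPKM in P56-NPCs and at 71.4, 62.8 and 61.9 FPKM in P0-NPCs, below each A-iSC sample. Atoh8, at 29.4, 23.7 and 13.8 FPKM in A-iSCs, was at 0.781, 0.497 and 0.799 FPKM in P56-NPCs and at 5.20, 4.51 and 5.56 FPKM in P0-NPCs.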

How the data were processed

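RNA of 12 samples was sequenced as paired-end reads from libraries made with a NEBNext Ultra kit. The authors removed adapter-bearing, undetermined and low-quality reads and deposited a table of FPKM per gene with gene lengths. The values themselves gave the unit: FPKM multiplied by gene length gave whole fragments for 100% of values in every sample. The submitters' processing notes name Bowtie 0.12.2 and mm8, whereas the positions of all 58 pathway genes in the table were those of GRCm38. The library sizes behind the deposited FPKM were 0.744 to 1.22 times the recovered totals, so a scaling between samples was already included.

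Genes with a mean of at least 1 FPKM in either group were tested on log2(FPKM + 1) with limma 3.58.1 (lmFit, eBayes with trend) in R 4.3.3, for 2 groups at a time, with Benjamini-Hochberg adjustment over all genes tested and a threshold of 0.05. The methods of the study used a count model; the table holds FPKM, so a log-scale test was the main one here and limma-voom on the recovered fragments an alternative. The script was tested on simulated data. Alternatives were other scalings, filters and pseudocount, all groups in 1 model, the replicate number as a block, and each sample left out; leaving out AST replicate 2 and A-iSC replicate 3 together was added after seeing the data. Sequences came from RefSeq.

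Every pathway gene could be named. Values per sample were given for those called in A-iSCs against ASTs with a log2 fold change beyond 1, those called beyond 2 against either NPC group, and the member with the highest mean in each role. Of the further genes, the 4 highest and 4 lowest called in each class were named. The pathway genes and lists were chosen with earlier results of these data known. Ctgf and Hfe2 were found under their newer symbols Ccn2 and Hjv. Some listed genes enter the counts and sums but are not reported here by name.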

Additional observations from a re-analysis of the deposited data

How the results depend on the processing

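Of the 123 gene differences recomputed, 100 kept their direction and call under every alternative run. The count of pathway genes higher in A-iSCs than in ASTs, 12, was 7 to 12 when single samples were left out. Scaling by library size moved the median log2 fold change of all genes tested to 0.134 in A-iSCs over ASTs and to 0.495 in A-iSCs over P56-NPCs, and the further genes lower in A-iSCs than in P56-NPCs came to 8 in place of 14. Over all genes it turned 3550 higher and 4165 lower calls in A-iSCs over ASTs into 4563 and 2989. It also gave calls to Tgfbr2, Bmp7 and Id4 and took those of Acvr2a, Id1, Ldlrad4, Msx1 and Nedd4l, and that of Bmpr1b against P56-NPCs. Without the filter, Inha, Bmp1, Bmpr1a, Acvr2a, Id1, Ldlrad4, Msx1, Trim33 and Nedd4l lost their calls, at adjusted p of 0.0533 to 0.0895. Upper-quartile scaling took those of Bmp1 (adjusted p = 0.0653) and Bmpr1a (adjusted p = 0.0526), limma-voom that of Inha (adjusted p = 0.0738) and the fit of all 4 groups that of Sostdc1. That fit gave Bmp7 a call. Of the differences that turned sign, none was called in the main comparison. Smad5 was -0.126 to 0.499 with single samples left out and -0.290 without AST replicate 2 and A-iSC replicate 3, where it was called lower (adjusted p = 0.0244). Smad4 was -0.046 under upper-quartile scaling, -0.247 to 0.139 with single samples left out and -0.417 without both, where it was also called lower (adjusted p = 0.00689). Ltbp3 was -0.046, -0.087 to 0.072 and -0.064 in the same fits. The cause was not tested. With the replicate number as a block, 12 pathway genes were higher and 19 lower, as without it, and Msx1 and Nedd4l lost their calls. Same-numbered A-iSCs and ASTs had correlations of deviations of -0.41, 0.35 and 0.45. The AST closest to A-iSC replicates 2 and 3 had the same number, and that closest to replicate 1 did not. With 3 samples in each group these values cannot settle whether the number paired the samples. A pseudocount of 0.1 gave larger differences for low genes, such as -5.58 for Gdf6 and 2.66 for Gdf3, with no call changed. The depth set 3 fragments as the smallest level told from 0, which limits Gdf6 in A-iSCs.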
